A study of Mus musculus with 14 samples.

Results

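The interleukin (IL)-1 family and tumor necrosis factor (TNF) were followed in the left ventricle (LV) through 10 genes: the ligands Il1a, Il1b, Il18, Il33 and Tnf, the receptors Il1r1, Il1rl1 (ST2) and Il18r1, and the inhibitors Il1rn and Il18bp. Each gene was read from its brightest probe set, by the mean of the 14 arrays, among those listed with that gene alone. Of the 10 genes, 8 had such a probe set among 19937 genes in all, and Il1r1 and Il1rl1 were not analysed here. Each of the 8 had 1 probe set.

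IL-1β and IL-18 are made as inactive precursors that caspase-1 cuts in the inflammasome, whereas IL-33 is stored in the nucleus of stromal and endothelial cells and is released by injured cells to act on ST2. IL-1 and IL-18 receptors signal through MyD88 and IRAK kinases to NF-κB, the pathway that TNF reaches through its own receptors. The soluble proteins encoded by Il1rn and Il18bp hold this signalling back, the first by occupying the IL-1 receptor and the second by binding IL-18. In the failing heart these cytokines are known for effects on contraction, matrix and inflammatory cells.

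Gene expression was measured on 14 arrays, 1 for each LV, 3 weeks after aortic banding (AB), in which a ligature narrows the ascending aorta, or after a Sham operation that left the aorta open. The groups were 3 WT Sham, 4 WT AB, 3 CXCR5-/- Sham and 4 CXCR5-/- AB mice, all male, and the sources used here do not give their age. The WT mice were C57BL/6, and the CXCR5-/- mice lacked the receptor in all tissues, with its coding region replaced by a neomycin resistance gene in embryonic stem cells of another strain and the line then backcrossed to C57BL/6. AB mice had been included by flow velocity across the constriction, and in a whole LV fewer cells of a type and less RNA per cell cannot be told apart.

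Values are log2 signals of a probe set, and a difference of 1 is a doubling. The arrays were alike, with medians between 5.19 and 5.30 and correlations between 0.975 and 0.993, and all 10 cardiomyocyte markers were above background on every array. The number of arrays limits the precision. Myl7, a light chain of atrial muscle, was at 8.82 to 9.68 on WT Sham 1, CXCR5-/- Sham 1 and CXCR5-/- Sham 2. It was at 5.65 to 7.49 on the other arrays. The differences of Il18, Il1b and Il18bp after AB are therefore also given without the Sham arrays high in Myl7. That fit leaves 1 array in the CXCR5-/- Sham group, so it is given as differences, without adjusted p. The Cxcr5 probe set was higher on the arrays labelled CXCR5-/-, by 1.07 after AB and 0.78 after Sham, and whether it lies in the replaced region is not known, so it does not check the genotype labels.

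The windows from 250 bases before to 50 after the RefSeq starts (GRCm38.p6) are shown for the 5 genes that rose after AB over both genotypes, since they are the regulatory sequence next to the genes whose signal moved together. They are written 5′ to 3′ along the gene, and capitals mark TATAAA, searched on both strands.
Il33, start 1 (chr19:29924863-29925162, plus strand): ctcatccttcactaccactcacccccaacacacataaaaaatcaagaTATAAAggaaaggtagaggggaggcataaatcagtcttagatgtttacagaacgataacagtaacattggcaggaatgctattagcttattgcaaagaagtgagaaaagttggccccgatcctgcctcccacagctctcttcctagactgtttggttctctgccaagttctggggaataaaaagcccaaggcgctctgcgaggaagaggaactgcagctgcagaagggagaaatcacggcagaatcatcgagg
Il33, start 2 (chr19:29945540-29945839, plus strand): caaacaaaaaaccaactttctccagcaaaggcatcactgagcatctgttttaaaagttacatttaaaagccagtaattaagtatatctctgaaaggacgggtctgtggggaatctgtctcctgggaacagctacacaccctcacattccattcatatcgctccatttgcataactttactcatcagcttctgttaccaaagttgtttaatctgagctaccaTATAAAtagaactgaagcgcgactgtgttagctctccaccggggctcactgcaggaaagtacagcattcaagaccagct
Il18 (chr9:50554450-50554749, plus strand): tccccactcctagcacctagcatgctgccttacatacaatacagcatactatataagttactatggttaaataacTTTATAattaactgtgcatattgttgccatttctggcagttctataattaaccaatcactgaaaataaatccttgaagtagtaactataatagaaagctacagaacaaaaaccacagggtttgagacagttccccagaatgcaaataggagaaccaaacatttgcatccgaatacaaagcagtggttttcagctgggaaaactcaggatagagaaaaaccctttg
Il18bp (chr7:102018183-102018482, minus strand): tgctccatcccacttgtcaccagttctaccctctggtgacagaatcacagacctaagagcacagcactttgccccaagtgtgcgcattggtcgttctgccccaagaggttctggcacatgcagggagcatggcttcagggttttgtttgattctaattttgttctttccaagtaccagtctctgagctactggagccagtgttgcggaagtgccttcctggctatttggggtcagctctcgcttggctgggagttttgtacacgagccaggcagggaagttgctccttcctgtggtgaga
Tnf (chr17:35201958-35202257, minus strand): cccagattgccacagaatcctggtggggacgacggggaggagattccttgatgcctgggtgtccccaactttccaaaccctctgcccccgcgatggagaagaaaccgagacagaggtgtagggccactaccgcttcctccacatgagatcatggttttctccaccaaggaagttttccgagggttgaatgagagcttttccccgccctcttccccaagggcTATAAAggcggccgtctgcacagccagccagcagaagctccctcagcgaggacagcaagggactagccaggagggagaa
Il1b (chr2:129371090-129371389, minus strand): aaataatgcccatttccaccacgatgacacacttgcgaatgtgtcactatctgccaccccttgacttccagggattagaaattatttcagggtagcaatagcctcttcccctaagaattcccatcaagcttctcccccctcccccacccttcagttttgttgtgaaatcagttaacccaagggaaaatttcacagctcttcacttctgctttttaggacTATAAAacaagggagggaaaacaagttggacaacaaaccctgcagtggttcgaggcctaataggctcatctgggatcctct
Il33 has 2 starts in this table, and the probe set does not tell them apart. TATAAA lay at position -29 of the second Il33 window and of Tnf and at -31 of Il1b, counted from the start. It lay further away, at -203, in the first Il33 window and at -175, on the opposite strand, in Il18, and Il18bp held none. It was found in 13.6% of 32544 promoter windows of the same length. Over the 13 windows of all 8 genes, 7 held it. The AP-1 motif TGANTCA, searched on both strands, was found in windows of Il1a and Il1rn and in 7.79% of all windows, and shared no base with TATAAA. The NF-kB consensus, also searched on both strands, was found in none of the 13 windows and in 4.53% of all windows.

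Background was taken from 1208 probe sets of olfactory and vomeronasal receptor genes, which the heart is not expected to use. Their median was 2.74 to 2.88 on the arrays and their 95th percentile 4.44 to 4.68. Il33, Tnf and Il18bp lay over the 95th percentile on all 14 arrays. Il1b did so on 2 arrays and Il18 on 1, while Il1a, Il18r1 and Il1rn did so on none. Il1a stayed between 0.46 below and 0.08 above the reference median. For genes that were not over the percentile on every array of either group, only log2 differences are given and no fold.

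**Figure D1:**
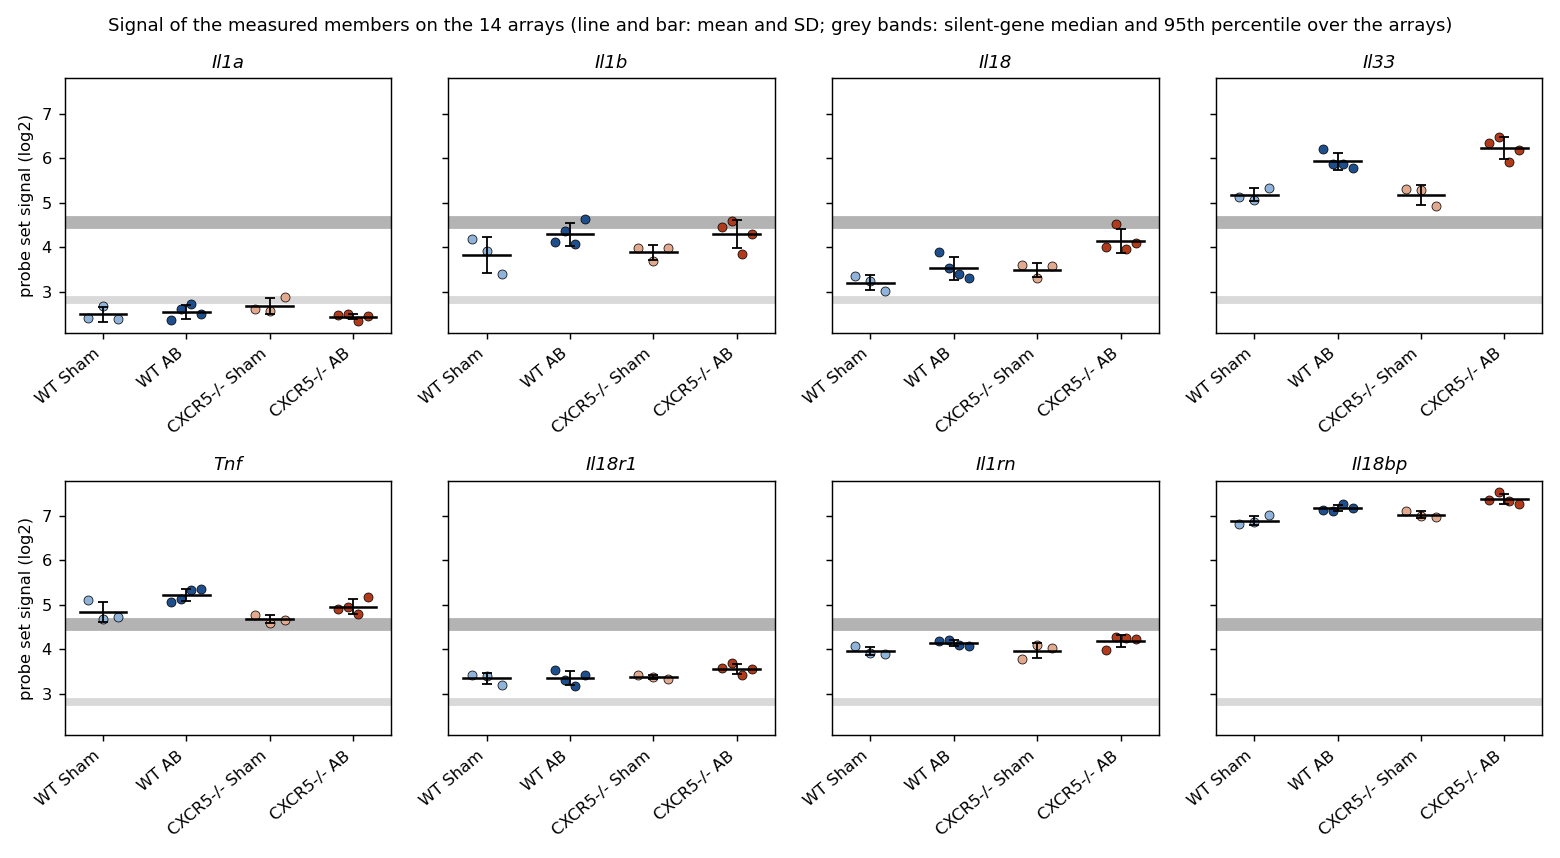
The log2 signal of each of the 8 measured genes on every array, in 4 groups, with the mean (line) and SD (bar); the light band spans the median and the dark band the 95th percentile of silent genes over the arrays. Il33 lies over the dark band on all 14 arrays and is higher on every AB array than on any Sham array, whereas Il1a lies at or under the light band.

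After AB, Il33 had the largest difference of the 8 genes, in both genotypes. In WT mice it was the gene that rose, and in CXCR5-/- mice Il18 and Il18bp rose as well. Averaged over both genotypes, Il33, Il18, Il18bp, Tnf and Il1b rose. None of the 8 fell in this fit. In WT mice this was 1 of 8 genes (12.5%), in CXCR5-/- mice 3 of 8 (37.5%) and over both 5 of 8 (62.5%). Among all genes, 5.1% rose in WT, 8.28% in CXCR5-/- and 12.3% over both genotypes, and 9.32%, 14.1% and 22.8% changed in either direction. With 8 genes, the single call in WT is not a result about the family. The median difference of the 8 genes was 0.30 in WT and 0.31 in CXCR5-/- mice, and that of all genes was 0.01 and -0.01.

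Il33, whose protein signals through ST2, was at 5.12, 5.05 and 5.33 on the WT Sham arrays and at 6.21, 5.86, 5.87 and 5.79 on the WT AB arrays. In CXCR5-/- mice it was at 5.31, 5.29 and 4.92 after Sham and at 6.33, 6.48, 5.92 and 6.18 after AB. Every AB array was above every Sham array, also across genotypes. Il33 rose by 0.76 (SE 0.14, adjusted p = 0.0019) in WT mice, a fold of 1.69 with a 95% confidence interval from 1.38 to 2.07. In CXCR5-/- mice it rose by 1.05 (SE 0.14, adjusted p = 6.4e-05), a fold of 2.08 (1.69 to 2.55). Both calls held under every alternative tried. With 1 array left out, adjusted p was at most 0.0165 in WT and 0.00091 in CXCR5-/- mice. The group means stood in the order WT Sham 5.17 ± 0.15 (SD, n = 3), CXCR5-/- Sham 5.17 ± 0.22 (n = 3), WT AB 5.93 ± 0.19 (n = 4) and CXCR5-/- AB 6.23 ± 0.24 (n = 4), in which the Sham groups did not differ beyond their spread and the AB groups overlapped.

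Over the 14 arrays, the genes whose signal followed Il33 most closely were Uchl1 (Pearson r = 0.973), Mtpn (r = 0.972) and Mfap5 (r = 0.964), out of 14108 genes with a mean over background. These r values describe arrays that fall into operation groups, and r of the deviations from group means was 0.776, 0.746 and 0.843 in the same order. Uchl1 encodes a ubiquitin hydrolase and Mfap5 a microfibril protein of the matrix.

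Il18, the gene of a cytokine that drives interferon γ production in lymphocytes, was near background throughout. It was at 3.34, 3.23 and 3.02 on the WT Sham arrays and at 3.88, 3.52, 3.39 and 3.30 on the WT AB arrays, which overlap. In CXCR5-/- mice it was at 3.59, 3.31 and 3.57 after Sham and at 3.99, 4.52, 3.95 and 4.08 after AB. The CXCR5-/- AB arrays were above all other arrays, with WT AB 1 next below them, and 1 of them, CXCR5-/- AB 2, passed the background percentile. The signal rose by 0.64 (SE 0.15, adjusted p = 0.0069) in CXCR5-/- mice, and the difference in WT mice was 0.32 (SE 0.15, adjusted p = 0.22). The call in CXCR5-/- mice was lost without CXCR5-/- Sham 2 (difference 0.55, adjusted p = 0.0505). Without the 3 Sham arrays high in Myl7, which leaves CXCR5-/- Sham 3 alone in its group, the difference was 0.57. That fit does not show that the call holds. Over both genotypes Il18 rose by 0.48 (SE 0.11, adjusted p = 0.0026).

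Tnf was above background on all arrays by a narrow margin. It was at 5.10, 4.68 and 4.74 on the WT Sham arrays and at 5.06, 5.14, 5.33 and 5.35 on the WT AB arrays, with WT Sham 1 inside the AB range. The CXCR5-/- arrays were at 4.78, 4.60 and 4.66 after Sham and at 4.91, 4.95, 4.79 and 5.19 after AB, which do not overlap. The difference was 0.38 in WT mice (SE 0.12, adjusted p = 0.0537), a fold of 1.3 (1.09 to 1.55), and 0.28 in CXCR5-/- mice (SE 0.12, adjusted p = 0.145), a fold of 1.21 (1.02 to 1.44). Tnf passed in WT without WT Sham 1 (difference 0.51, adjusted p = 0.0122), without WT AB 1 (0.43, adjusted p = 0.0486) and without CXCR5-/- AB 4 (0.38, adjusted p = 0.0422). Over both genotypes it rose by 0.33 (SE 0.08, adjusted p = 0.0081). The genes whose signal was most like that of Tnf were Mir100hg, Gpr183 and Esm1, with r of 0.901, 0.894 and 0.892 over the 14 arrays and 0.749, 0.778 and 0.793 for deviations from group means.

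Il1b was at 4.17, 3.90 and 3.39 on the WT Sham arrays and at 4.11, 4.36, 4.07 and 4.62 on the WT AB arrays. The CXCR5-/- arrays were at 3.97, 3.69 and 3.98 after Sham and at 4.44, 4.59, 3.84 and 4.29 after AB. Sham and AB overlapped in both genotypes, through WT Sham 1 and CXCR5-/- AB 3, and 2 AB arrays passed the background percentile. The difference was 0.47 in WT mice (SE 0.19, adjusted p = 0.146) and 0.41 in CXCR5-/- mice (SE 0.19, adjusted p = 0.178). Over both genotypes Il1b rose by 0.44 (SE 0.13, adjusted p = 0.0225). This call was lost without WT Sham 3 (difference 0.33, adjusted p = 0.0797) or CXCR5-/- Sham 2 (0.39, adjusted p = 0.0691). It was also lost with every probe set tested (0.44, adjusted p = 0.0616). Without the 3 Sham arrays high in Myl7, which leaves CXCR5-/- Sham 3 alone in its group, the difference was 0.48. That fit does not show that the call holds. Il1a, which lies beside Il1b on chromosome 2, was at 2.35 to 2.88 over all arrays, and its difference was 0.06 in WT (adjusted p = 0.846) and -0.24 in CXCR5-/- mice (adjusted p = 0.172). With array weights Il1a was lower after AB in CXCR5-/- mice (-0.36, adjusted p = 0.012) and over both genotypes (-0.20, adjusted p = 0.0469). The largest weight (3.91) went to CXCR5-/- Sham 3, the array highest in Il1a (2.88).

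Of the receptors, Il18r1, the binding chain for IL-18, ranged from 3.18 to 3.53 in WT and from 3.33 to 3.68 in CXCR5-/- mice. Its difference after AB was 0.01 (95% confidence interval -0.20 to 0.22) in WT and 0.18 (-0.03 to 0.39) in CXCR5-/- mice, with adjusted p of 0.976 and 0.273.

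Of the inhibitors, Il18bp had group means 2.38 to 2.90 over the 95th percentile of the silent genes. It was at 6.81, 6.86 and 7.01 on the WT Sham arrays and at 7.14, 7.12, 7.27 and 7.17 on the WT AB arrays. After Sham the CXCR5-/- arrays were at 7.12, 7.004 and 6.98, and after AB they were at 7.37, 7.53, 7.33 and 7.27. Within each genotype all AB arrays were above all Sham arrays. Il18bp rose by 0.34 in CXCR5-/- mice (SE 0.09, adjusted p = 0.0156), a fold of 1.27 (1.11 to 1.45). In WT mice the difference was 0.28 (SE 0.09, adjusted p = 0.0622), a fold of 1.21 (1.06 to 1.39), and over both genotypes it rose by 0.31 (SE 0.06, adjusted p = 0.0015). The call in CXCR5-/- mice was lost without CXCR5-/- Sham 2 (difference 0.33, adjusted p = 0.0631), CXCR5-/- Sham 3 (0.31, adjusted p = 0.0771) or CXCR5-/- AB 2 (0.29, adjusted p = 0.0576). Without the 3 Sham arrays high in Myl7, which leaves CXCR5-/- Sham 3 alone in its group, the difference was 0.40. That fit does not show that the call holds. Plcg2, Tpmt and Cmklr1 were most like Il18bp, with r of 0.926, 0.926 and 0.924 over the arrays and 0.595, 0.601 and 0.624 for deviations from group means.

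Il1rn was under the background percentile on every array, at 3.77 to 4.09 after Sham and 3.997 to 4.27 after AB over both genotypes. Its difference was 0.18 in WT (adjusted p = 0.326) and 0.22 in CXCR5-/- mice (adjusted p = 0.179). Over both genotypes it was 0.20 (SE 0.07, adjusted p = 0.0509), and it passed without WT Sham 1, WT AB 4, CXCR5-/- Sham 2 or CXCR5-/- AB 1 (adjusted p from 0.0243 to 0.0473). Il1rn also passed over both genotypes with array weights, an intensity trend, repeated quantile normalization or probe sets averaged per gene (adjusted p from 0.0199 to 0.0499).

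**Figure D2:**
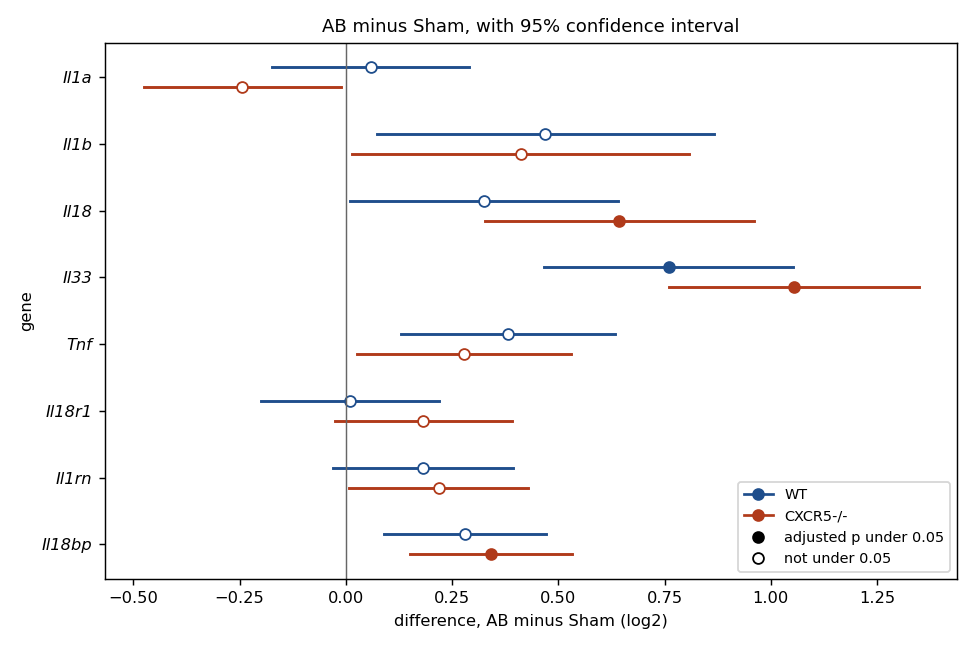
Difference between AB and Sham (log2) with its 95% confidence interval for each gene, in WT (blue, upper) and CXCR5-/- mice (red, lower); filled points have an adjusted p under 0.05. Il33 is filled in both genotypes, at 0.76 and 1.05, and Il18 and Il18bp are filled in CXCR5-/- mice.

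The response to AB was then compared between genotypes. No gene of the 8 passed the test of the difference of AB responses, and 0% of all genes did in limma, with 574 genes at an unadjusted p under 0.05. The response of Il33 was 0.29 larger in CXCR5-/- mice with an interval from -0.12 to 0.71, and that of Il18 was 0.32 larger with an interval from -0.13 to 0.77. For Tnf the difference of responses was -0.10 (-0.46 to 0.25) and for Il18bp 0.06 (-0.21 to 0.33). Calls of Il18 and Il18bp in CXCR5-/- mice beside none in WT are therefore not shown to differ between genotypes.

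Between mice labelled CXCR5-/- and WT mice, none of the 8 genes passed after AB, after Sham or over both operations, where 0.0451%, 0.0401% and 0.0953% of all genes did. After AB, 5 of the 8 genes (Il18, Il18bp, Il18r1, Il33 and Tnf) had an unadjusted p under 0.05 in limma, as did 1185 of 19937 genes (5.94%). Il18 was the furthest apart after AB, with 3.30 to 3.88 in WT and 3.95 to 4.52 in CXCR5-/- mice. These ranges do not overlap, and the difference was 0.61 (95% confidence interval 0.32 to 0.91, limma unadjusted p = 0.00037, adjusted p = 0.15). After Sham the difference of Il18 was 0.29 (-0.04 to 0.63) with overlapping arrays. Il33 differed by 0.30 after AB (adjusted p = 0.786) and by 0.00 after Sham (-0.31 to 0.32). Tnf had the opposite sign, at -0.26 after AB (adjusted p = 0.766) and -0.16 after Sham.

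**Figure D3:**
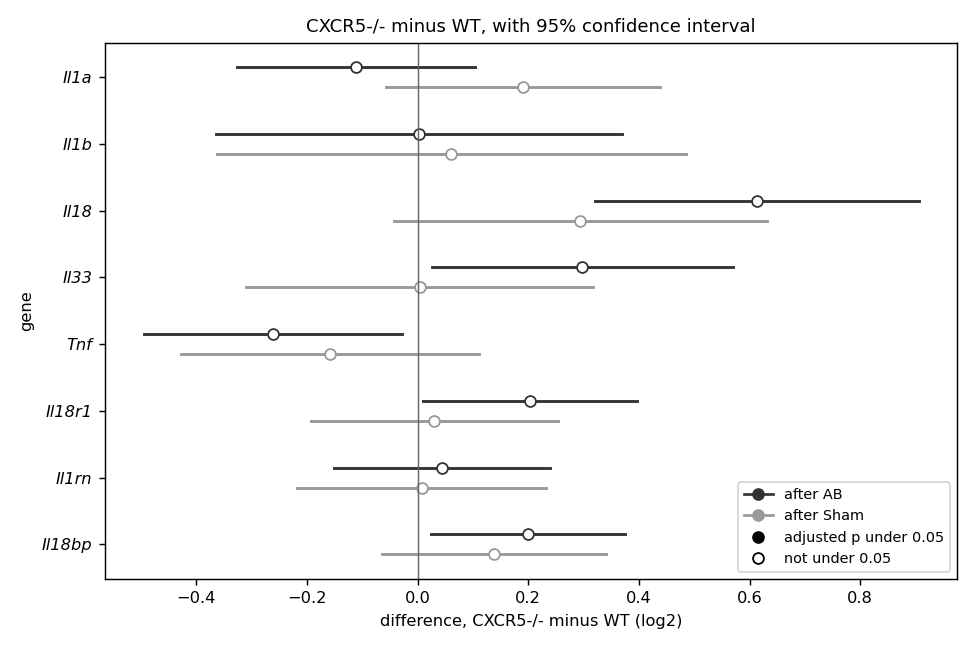
Difference between mice labelled CXCR5-/- and WT (log2) with its 95% confidence interval, after AB (dark, upper) and after Sham (grey, lower). All points are open, since no adjusted p is under 0.05, and Il18 after AB lies furthest from 0 at 0.61.

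Il18 lies on chromosome 9, as does Cxcr5, the replaced gene. Of the 20 measured genes nearest to Il18, Pts passed between genotypes after AB, and Pts and Dixdc1 passed after Sham. Of the 65 measured genes between Cxcr5 and Il18, 4 passed after AB (Tmprss13, Nxpe4, Nxpe2 and Pts) and 4 after Sham (Scn4b, Tmprss13, Nxpe4 and Pts). Among all genes, 0.0451% passed after AB and 0.0401% after Sham, as above. After AB the difference was -1.98 for Nxpe4 and -0.98 for Pts, both lower in CXCR5-/- mice, and Tmprss13 was higher by 0.91. Whether DNA of the stem cell strain remains around Cxcr5 in these mice, and its part in the Il18 values, was not tested. The measured genes on either side of Il18, Bco2 and Tex12, overlap it in RefSeq and differed by 0.03 and 0.09 after AB between genotypes.

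The measured genes next to the others were read in the same way. Il33 on chromosome 19 lies between Ranbp6 (-0.23 in WT and -0.27 in CXCR5-/- after AB) and Trpd52l3 (-0.09 and -0.32), and neither passed. Tnf on chromosome 17 lies between the lymphotoxin genes Ltb (0.16 and -0.11) and Lta (-0.16 and 0.00), and Il18bp on chromosome 7 between Numa1 (-0.18 and -0.22) and Rnf121 (-0.06 and -0.01), again with no call. Next to Il18r1 on chromosome 1, Il1rl2 rose in both genotypes, by 0.45 and 0.75, whereas Il18rap, the second chain of the IL-18 receptor, was at 0.28 and 0.10 without a call. Il1rn on chromosome 2 lies between Il1f10 (-0.16 and -0.12) and Psd4 (0.19 and 0.06), with no call. Il1bos, which overlaps Il1b on the opposite strand, was at 0.01 and -0.10.

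The wider pathway was read from a list of 79 genes, of which 75 were measured. In WT mice 8 rose (10.7%) and none fell, and in CXCR5-/- mice 12 rose (16%) and none fell. Over both genotypes 20 rose (26.7%) and 3 fell. The shares of all genes that rose were 5.1%, 8.28% and 12.3%, as above. Between genotypes none of the 75 passed in any comparison. The median difference of the list was 0.14 in WT and 0.09 in CXCR5-/- mice. The count in WT was 2 without WT Sham 2, 4 without WT Sham 3 and 5 without WT AB 3.

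Among other ligands of the family, none of 5 passed, and Il1f6 (IL-36α) was at 0.01 in WT and -0.12 in CXCR5-/- mice after AB. Among 7 other receptors of the family, Il1rl2, the receptor for IL-36, rose in both genotypes (0.45, adjusted p = 0.0264, and 0.75, adjusted p = 0.00045).

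Of 9 inflammasome and processing genes, 2 rose in WT and 4 in CXCR5-/- mice. Casp4, the caspase that senses lipopolysaccharide in the cytosol, rose by 0.59 and 0.53, and P2rx7, the ATP-gated channel that triggers IL-1β release, by 0.38 and 0.55. Casp1, which cuts the precursors of IL-1β and IL-18, rose by 0.66 in CXCR5-/- mice (adjusted p = 0.0022) and was at 0.32 in WT (adjusted p = 0.157). Aim2, a DNA sensor, rose by 0.52 in CXCR5-/- mice and was at 0.42 in WT (adjusted p = 0.0768). Its Sham means, 4.60 in WT and 4.47 in CXCR5-/- mice, were near the background percentile. Of the pathway genes that rose, Aim2, Casp1, Il1rl2 and Ptgs2 were each over that percentile on 13 of 14 arrays.

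Of 13 genes of TNF release, receptors and adaptors, the TNF receptor genes rose in both genotypes, Tnfrsf1a by 0.47 and 0.72 and Tnfrsf1b by 0.61 and 0.73. Casp8, the caspase recruited by death receptors, rose by 0.40 in CXCR5-/- mice and was at 0.22 in WT. Tradd, the adaptor of the first TNF receptor, rose by 0.47 in CXCR5-/- mice and was at 0.20 in WT.

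Of 10 adaptors and kinases below the receptors, none passed within a genotype, and Tab1, with the smallest p, was at -0.31 in WT and -0.20 in CXCR5-/- mice. Over both genotypes Myd88 and Irak3 rose, and Tab1 and Traf6 fell. Of 12 genes of the NF-κB module, Nfkb2 (0.31) and Nfkbiz (0.45) rose in WT mice, and none passed in CXCR5-/- mice, where they were at 0.19 and 0.34. Over both genotypes Bcl3 (0.30), Nfkb2 (0.25) and Nfkbiz (0.39) rose, and Ikbkg fell (-0.27).

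Of 19 genes that these cytokines are known to induce, 1 rose in WT and 3 in CXCR5-/- mice. Ptgs2, the inducible cyclooxygenase, rose by 0.98 in WT (adjusted p = 0.00016) and 0.79 in CXCR5-/- mice (adjusted p = 0.00065). Lcn2, an iron-binding protein, rose by 0.72 in CXCR5-/- mice and was at 0.51 in WT (adjusted p = 0.105). Mmp3, a matrix protease, rose by 0.87 in CXCR5-/- mice and was at 0.67 in WT (adjusted p = 0.0527).

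**Figure D4:**
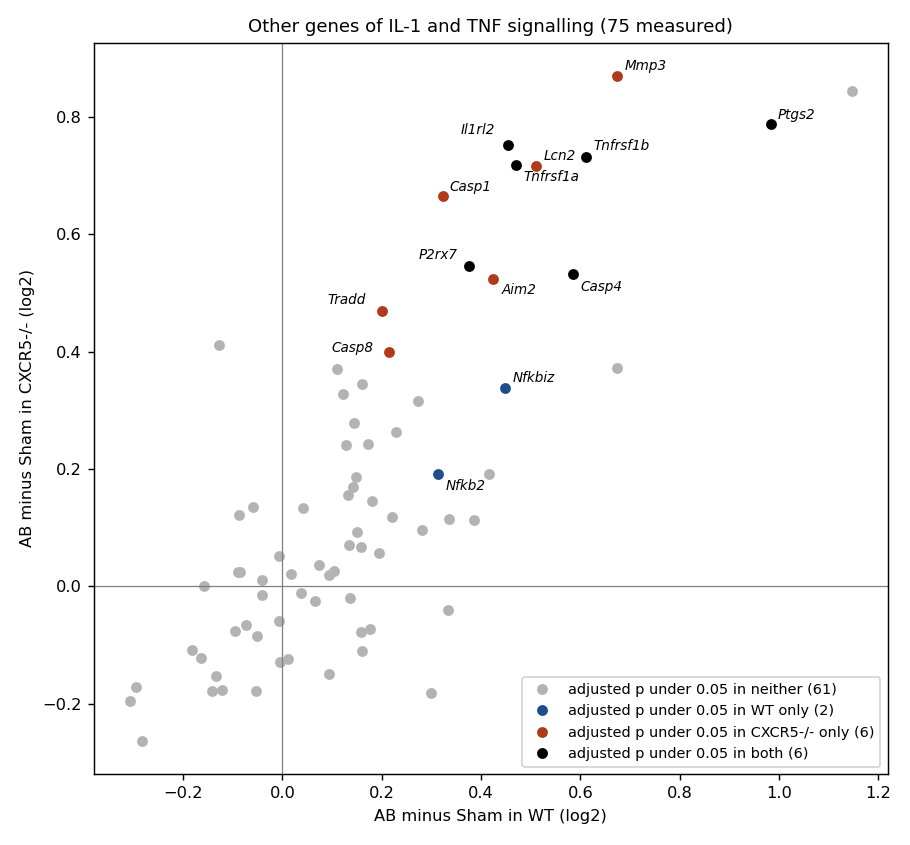
Difference between AB and Sham (log2) in WT (horizontal axis) and in CXCR5-/- mice (vertical axis) for the 75 measured pathway genes; 6 genes have an adjusted p under 0.05 in both genotypes (black), 2 in WT (blue), 6 in CXCR5-/- mice (red) and 61 in neither (grey). All 14 named genes lie above 0 on both axes.

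Markers of some other cells, most of all the macrophage and fibroblast lists, moved with AB beside the cytokine genes. Among all genes 5.1% rose in WT, 8.28% in CXCR5-/- and 12.3% over both genotypes, where 22.8% changed in either direction. The endothelial, neutrophil, mast cell, B cell and T cell counts are too small to be a result about those cells. Of 14 macrophage markers, 7 rose in WT and 10 in CXCR5-/- mice, with medians of 0.48 and 0.67. Cd68 rose the most, by 0.86 and 1.09, and over both genotypes Cd163 fell by 0.45. The summed linear signal of the macrophage list was 2165 to 2367 on WT Sham, 2954 to 3434 on WT AB, 1871 to 2174 on CXCR5-/- Sham and 3080 to 3966 on CXCR5-/- AB arrays. Of 10 fibroblast markers, 6 rose in WT and 9 in CXCR5-/- mice, with medians of 0.97 and 0.96. Postn rose the most, by 2.89 and 2.85, whereas Pdgfra (0.15), Ddr2 (0.15), Dcn (0.29) and Tcf21 (0.53) did not pass in WT. The summed signal of the fibroblast list was 4965 to 5226, 7718 to 11140, 4743 to 5477 and 9439 to 11140 in the same order of groups. Of 10 endothelial markers, 1 rose in WT and 2 in CXCR5-/- mice, Emcn by 0.40 and 0.53, and over both genotypes Kdr fell by 0.36. The summed signal of the endothelial list was 4551 to 5171 on WT Sham, 4283 to 5277 on WT AB, 4157 to 5006 on CXCR5-/- Sham and 4472 to 4926 on CXCR5-/- AB arrays. Of 10 neutrophil markers, 1 rose in WT and 0 in CXCR5-/- mice, and over both genotypes Csf3r (0.42) and Ly6g (0.27) rose. S100a8 and Ly6g were over the background percentile on none of the arrays, S100a9 on 14 and Csf3r on 9. The summed signal of the neutrophil list was 137.1 to 165.5 on WT Sham, 159.5 to 182.6 on WT AB, 145.8 to 159.4 on CXCR5-/- Sham and 157.1 to 171.1 on CXCR5-/- AB arrays. Over both genotypes 1 of 9 mast cell, 2 of 5 B cell and none of 7 T cell markers rose, 4 of 8 smooth muscle and pericyte markers rose and 1 fell, and 5 of 10 cardiomyocyte markers fell. The part of these cells in the differences of Il33, Il18, Il18bp, Tnf and Il1b was not tested.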

How the data were processed

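LV RNA was hybridised to Affymetrix mouse ST 1.0 arrays, 1 array per mouse, and groups and replicate numbers came from the sample titles. The authors preprocessed the arrays by robust multi-array average (RMA) and deposited log2 values for 34760 probe sets, with background, normalization and summary settings not given in the sources used here, nor the annotation build. All 14 columns were used as deposited. Of the probe sets, 21640 had 1 gene symbol, 1321 several and 11799 none, and a gene was taken only from the first kind. RefSeq (GRCm38.p6) gave current symbols for 21553 of them, and 954 of 19937 genes had several probe sets. Near background, log2 differences of RMA values tend to be smaller than differences in RNA.

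Groups were compared with limma 3.58.1 in R 4.3.3 (lmFit and eBayes, 1 mean per group, 10 residual degrees of freedom), with adjusted p by Benjamini-Hochberg over all genes and a threshold of 0.05. Intervals are 95% and not adjusted. The study names significance analysis of microarrays, which was run as an alternative with all distinct permutations. A group counted as above background when all its arrays lay over the 95th percentile of the silent genes. The tests were checked on simulated data. Summaries were made in Python 3.11.15.

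The members and gene lists were chosen with earlier results of these data known. Named were all members, pathway genes that passed in either genotype or between genotypes (otherwise the smallest p of a sub-list), the 3 genes most like each member that passed above background, and chromosomal neighbours. The Sham arrays left out together were those highest in Myl7. Deviations of same-numbered arrays of WT AB and CXCR5-/- AB had r from 0.125 to 0.220 for the 4 pairs, which comes from the values and not from the labels. Other same-numbered pairs ranged from -0.109 to 0.451. Differently numbered arrays were not compared, so a pairing was not tested. Alternatives were array weights, variance models, further normalization, filters on dim probe sets, probe set choice, the replicate block, atrial transcripts as a covariate and leaving out arrays. Protein sequences were not used here.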

Additional observations from a re-analysis of the deposited data

Results flagged for a closer look

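Il1rn in CXCR5-/- AB mice had 1 array apart from the rest: CXCR5-/- AB 1 was at 3.997 (log2 signal), whereas the other 3 were at 4.23 to 4.27. The gap exceeded the 95% critical value of Dixon's test for 4 arrays, in 1 of 16 groups of 4 examined, and chance flags about 1 in 20 such groups. All 4 values lay under the background percentile.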

How the results depend on the processing

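Il33 kept its direction and its call after AB in both genotypes under every alternative run. The array weights were 3.39 for WT Sham 2 and 3.91 for CXCR5-/- Sham 3, against 0.50 to 1.25 for the others. Calls with array weights therefore rest mostly on these arrays for the Sham groups. For AB against Sham in WT, 1 of the 8 genes passed, against 3 (Il33, Tnf and Il18bp) with array weights or with either filter on dim probe sets, 2 with repeated quantile normalization, the atrial covariate or significance analysis of microarrays, and 1 to 2 when 1 array was left out. In CXCR5-/- mice 3 passed, against 5 with array weights (Tnf higher and Il1a lower besides) and 1 to 3 with 1 array left out. Fewer members and fewer pathway genes passed in CXCR5-/- mice without the 3 Sham arrays high in Myl7. That fit leaves CXCR5-/- Sham 3 alone in its group, so no counts are given. Tnf also passed in CXCR5-/- mice with the atrial covariate (0.39, adjusted p = 0.0255), and either filter on dim probe sets removed Il18. Over both genotypes 5 passed, against 3 with either filter, which removes the dim genes, 7 with array weights (Il1rn higher and Il1a lower besides), 6 (with Il1rn) with an intensity trend, repeated quantile normalization or probe sets averaged per gene, 4 with every probe set tested, and 4 to 6 with 1 array left out. For the pathway list, 8 genes passed in WT (20 with array weights, 4 with median centring, 4 with every probe set tested, 2 to 11 with 1 array left out), 12 in CXCR5-/- mice (23 with array weights, 10 to 12 with 1 array left out) and 23 over both (19 to 26). Between genotypes none of the list passed after AB (0 to 1 with 1 array left out). Averaged over both operations, array weights gave 1 member, Il18 (adjusted p = 0.0417), and 1 pathway gene, and leaving out 1 array gave 0 to 1 pathway genes. Against Krtap genes as the silent reference, 1 gene, Il18bp, was above background on every array of a group, in place of 3. With the 99th percentile of the olfactory and vomeronasal reference, 2 were, Il33 and Il18bp. With the replicate block, 1 pathway gene passed between genotypes over both operations, Il18 after AB stayed short of the threshold (adjusted p = 0.0908), and no member gained or lost a call. Signs turned only where differences were near 0. With array weights, Il1a was at -0.039 and Il18r1 at -0.033 after AB in WT, Il1b at -0.019 between genotypes after AB, Il33 at -0.078 and Il18r1 at -0.028 after Sham, and the difference of responses of Il1rn at -0.055. With median centring, Il18r1 was at -0.020 in WT, and Il33 (-0.0039) and Il1rn (-0.00026) turned after Sham. With the atrial covariate, Il1b after AB (-0.0047) and Il33 (-0.0062) and Il1rn (-0.00092) after Sham turned. Quantile normalization turned Il33 after Sham (-0.00093). Leaving out the 3 Sham arrays high in Myl7, with CXCR5-/- Sham 3 then alone in its group, turned Il33 after Sham to -0.273 and the Il1rn difference of responses to -0.093. With 1 array left out, the ranges that crossed 0 were -0.0011 to 0.154 for Il1a and -0.059 to 0.070 for Il18r1 in WT after AB, -0.234 to 0.158 for Il1b and -0.062 to 0.100 for Il1rn in the difference of responses, -0.097 to 0.152 for Il1b after AB, -0.156 to 0.236 for Il1b, -0.067 to 0.130 for Il33, -0.039 to 0.071 for Il18r1 and -0.055 to 0.106 for Il1rn after Sham, and -0.011 to 0.088 for Il1a, -0.077 to 0.119 for Il1b and -0.0055 to 0.075 for Il1rn over both operations between genotypes. The cause of these shifts was not tested. Signal over background limits Il1a, Il1b, Il18, Il18r1 and Il1rn, whose values lie near those of silent genes. It also limits Tnf, which lay 0.10 to 0.89 over the 95th percentile and over the 99th on 2 of 14 arrays. Il33 was over the 99th percentile on all AB arrays but on 1 of 3 Sham arrays in each genotype.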
